A study of Rattus norvegicus with 176 samples.

Results

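The comparison described here was that of livers from F344 rats given clofibric acid (CA) with livers from control rats of the same series at 18 months. It took the 10 untagged liver sections, 1 per rat, whose source labels named the CA or the control group at 18m, 5 rats in each, out of 176 samples in all. The CA rats carried the numbers 4142, 4143, 4144, 4145 and 4150, and the control rats 4036, 4038, 4039, 4040 and 4045. Values for single rats are given below in this order. The series followed control rats, CA rats and rats given DEN, with or without CA, over several times, with 1 Affymetrix array per section. CA was given at 5000 ppm according to the titles, which carried this dose for control rats too, so the group names told treated from control rats. The labels gave neither the age nor the sex of the rats, the route of dosing or the batch of an array, and they did not say that any rat shared a litter or a cage with another. Of the CA rats, 4142, 4143, 4144 and 4150 had also given sections tagged TU or PERI, tags that the labels did not explain, and 4145 had not. Only the untagged sections entered the comparison.

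Clofibric acid is a fibrate. Fibrates activate PPARalpha, a nuclear receptor that binds DNA as a heterodimer with the retinoid X receptor and switches on genes for the uptake and oxidation of fatty acids in hepatocytes. In rats and mice such drugs also enlarge the peroxisome compartment of the liver, and long exposure leads to liver tumours, which makes the late state of the untagged liver a question in itself.

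Levels are given as scaled signals, that is, deposited intensities after each array had been scaled to a common median of 99.35. Differences are given as log2 fold changes (CA less control) of the signal plus an offset of 25, with their standard errors (SE), so that changes of dim genes are understated. Genes are said to have risen or fallen only where the Benjamini-Hochberg adjusted p of limma's moderated test was under 0.05 over all 12393 tested probe sets. A probe set's brightness also depends on its own sequence, so levels are compared between rats and not between genes. The unscaled array medians ran from 78.0 to 170.8 in the CA rats and from 96.6 to 125.1 in the control rats (exact two-sided permutation test, p = 0.905, n = 5 per group, the smallest possible being 0.0079). The hepatocyte markers were bright in every rat. Albumin was between 10470 and 19060 in the CA rats and between 14740 and 15560 in the control rats, and none of the 8 tested hepatocyte markers passed limma's adjusted p of 0.05.

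Some control rats stood apart. Rat 4040 had the lowest mean correlation with its own group, 0.955, against 0.964 to 0.979 for the other 9 rats, and rat 4036 correlated as closely with the CA rats as with the other controls, 0.964 in both cases. Rat 4040 had high signals of cytotoxic lymphocyte genes and of genes that are predominant in female rat liver, and rat 4036 had high signals of several genes of the amino acid response, as described below. Results that rested on either rat are therefore also given without it.

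At 18 months, 636 of 8742 tested genes (7.28%) differed between CA and control rats. Of these, 322 rose (3.68%) and 314 fell (3.59%), and the median log2 fold change over all tested genes was -0.02. A change of at least 2-fold was reached by 84 of the genes that rose and by 60 of those that fell. The values of the 2 groups did not overlap for 308 genes in the higher direction (3.52% of all tested genes) and for 257 in the lower direction (2.94%), and 375 of the 636 called genes were among these. Leaving out each of the 10 rats in turn, 320 of the 636 genes were called in every one of the 10 fits. Leaving out control rat 4040 ended the call of 178 genes, a count that was not made for the other single rats. The net count of probe sets called, which also takes in new calls, was 731 without rat 4040. It was 663 without CA rat 4142, 699 without CA rat 4150 and 700 without control rat 4038. Of 841 probe sets called, 47.0% were higher under CA, and without scaling of the arrays 59.4% of 175 were.

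**Figure D1:**
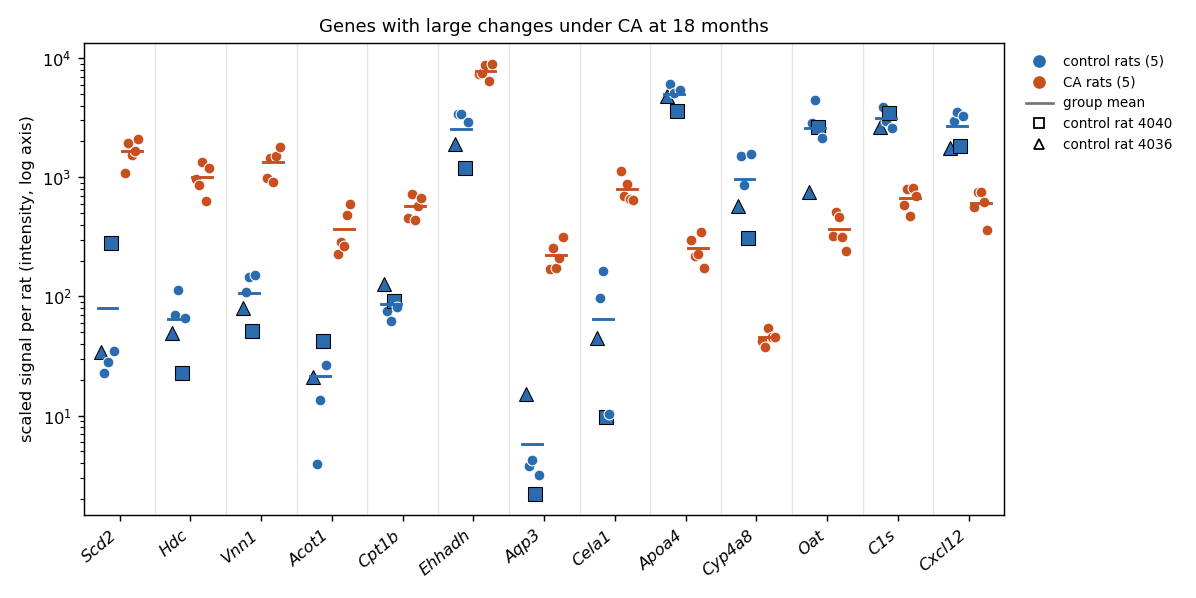
Scaled signal (intensity, log axis) of 13 genes in each of the 5 control and 5 CA rats at 18 months, with horizontal lines at the arithmetic group means, a square for control rat 4040 and a triangle for control rat 4036. For all 13 genes the 2 groups do not overlap. Control rat 4040 has 283 for Scd2, where the other control rats have 22.6 to 34.5. The genes were picked from those with large changes. Others with large changes and overlapping groups, such as Obp3 and Phgdh, are not drawn here. Over all tested genes, 3.52% did not overlap in the higher and 2.94% in the lower direction.

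Among the genes called, the largest rise was that of Scd2, a stearoyl-CoA desaturase, which introduces the double bond of monounsaturated fatty acids. Its signal was 1081, 1936, 1541, 1679 and 2097 in the CA rats and 33.9, 22.6, 28.4, 283 and 34.5 in the control rats. The groups did not overlap, and the single high control value was that of rat 4040. The log2 fold change was 4.42 (SE 0.32, adjusted p = 1.7e-23), and 4.92 without rat 4040. A second Scd2 probe set rose by 2.89.

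The other fatty acid synthesis genes rose less or not at all. Of 20 tested genes of fatty acid and triglyceride synthesis, 4 rose and none fell, with a median of 0.43. Fads2, the delta-6 desaturase of polyunsaturated fatty acid synthesis, rose by 1.79 (SE 0.24), and Me1, the malic enzyme that supplies NADPH, rose by 1.81 (SE 0.20). Fads1, the delta-5 desaturase, rose by 1.03 (SE 0.24, adjusted p = 0.002), a call that ended when control rats 4036 and 4040 were both left out (adjusted p = 0.15). Srebf1, which encodes the transcription factor SREBP1, was at 2135 to 3294 in the CA rats and 1223 to 1714 in the control rats. These ranges did not overlap, but its log2 fold change of 0.93 (SE 0.32) did not pass the test (adjusted p = 0.056). Scd and Fasn, a further desaturase and the fatty acid synthase, had log2 fold changes of 0.79 (SE 0.39) and 0.49 (SE 0.31) and were not called.

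**Figure D2:**
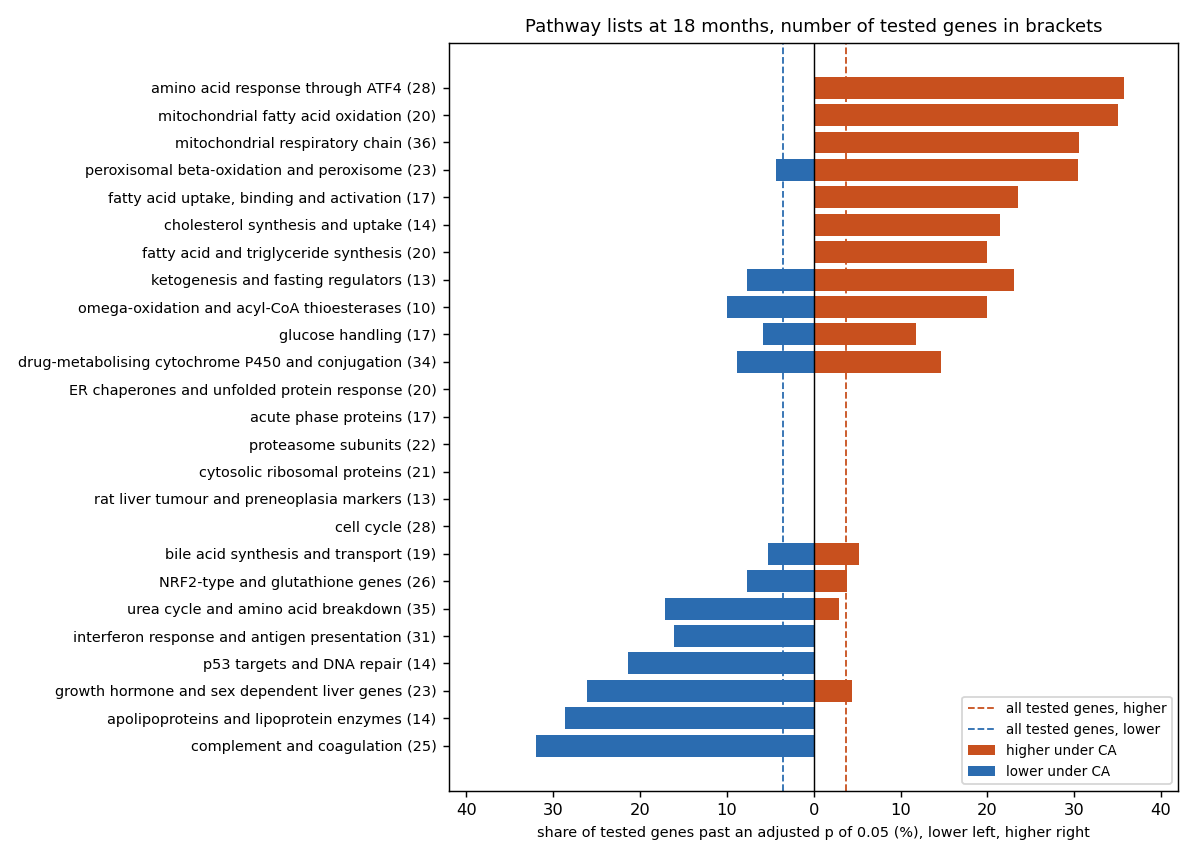
Share of the tested genes of each of 25 pathway lists (percent) that passed an adjusted p of 0.05 at 18 months, lower under CA to the left and higher to the right, with the number of tested genes in brackets. Dashed lines mark the share of all tested genes, 3.68% higher and 3.59% lower, and the ATF4 list (10 of 28) and the complement list (8 of 25) extend farthest on either side.

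Of 17 tested genes of fatty acid uptake and activation, 4 rose and none fell. Fabp5, a fatty acid binding protein, rose by 1.66 (SE 0.26), Acsl3, a long-chain acyl-CoA synthetase, by 1.55 (SE 0.24), and Lpl, lipoprotein lipase, by 1.39 (SE 0.22). Fabp3, another binding protein, rose by 1.35 (SE 0.41, adjusted p = 0.023). Its signal was 136 to 167 in 4 of the CA rats and 339 in rat 4150, against 22.1 to 86.5 in the control rats, and it was not called without CA rat 4150 (adjusted p = 0.11) or without control rat 4040 (adjusted p = 0.10). Fabp1, the main binding protein of hepatocytes, did not pass the test, at 0.29 (SE 0.17).

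Of 20 tested genes of mitochondrial fatty acid oxidation, 7 rose and none fell, with a median of 0.26. Without control rats 4036 and 4040, 3 genes of the list were called higher. Cpt1b, the carnitine palmitoyltransferase isoform that predominates in muscle, was the most changed. Its signal was 459, 727, 439, 570 and 665 in the CA rats and 127, 74.9, 61.7, 91.0 and 81.0 in the control rats, with no overlap (log2 fold change 2.41, SE 0.20, adjusted p = 4.6e-19). Cpt1a, the liver isoform of the same enzyme, was at 2548 to 4293 in the CA rats and 2771 to 4116 in the control rats and was not called (-0.21, SE 0.15). The mitochondrial thioesterase Acot2 rose by 1.2 (SE 0.29). Eci1, an enoyl-CoA isomerase, rose by 1.08 (SE 0.19), but its second probe set was at -0.26, and Hadha, a subunit of the trifunctional protein, rose by 0.64 (SE 0.15), a call that ended without control rats 4036 and 4040 (adjusted p = 0.15).

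In the peroxisome list, 7 of 23 tested genes rose and 1 fell. Without control rat 4036, without 4040 or without both, 4 were called higher. Ehhadh, the bifunctional enzyme of peroxisomal beta-oxidation, had signals of 7396, 7470, 8724, 6391 and 8913 in the CA rats. In the control rats it had 1897, 3384, 3386, 1207 and 2937, and the groups were clearly apart (1.68, SE 0.22, adjusted p = 1.6e-09). Acot8, a peroxisomal thioesterase, rose by 1.19 (SE 0.22), and Abcd2, a transporter of very long chain fatty acids, by 0.82 (SE 0.19). Acot12, a thioesterase that acts on acetyl-CoA, rose by 0.69 (SE 0.19), a call that ended without control rat 4040 (adjusted p = 0.24). Amacr, the racemase needed for branched fatty acids, was the gene that fell, by 0.64 (SE 0.20), with overlapping groups and an adjusted p of 0.029. This call ended without CA rat 4145 or 4150 (adjusted p = 0.14 and 0.3) and without control rat 4038 or 4039 (0.14 in both).

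Among the omega-hydroxylases and thioesterases, members moved in opposite directions. Acot1, a cytosolic acyl-CoA thioesterase, rose by 3.06 (SE 0.34, adjusted p = 9.9e-13), from signals of 3.91 to 42.5 in the control rats to 227 to 593 in the CA rats. Cyp4a1, a fatty acid omega-hydroxylase, rose by 1.21 (SE 0.19). Cyp4a8 of the same family fell. Its signal was 42.4, 37.5, 54.5, 46.0 and 45.8 in the CA rats and 580, 1500, 860, 312 and 1584 in the control rats. Every control rat was above every CA rat, and the CA rats differed little among themselves (-3.60, SE 0.21, adjusted p = 8.8e-31), with a second probe set at -3.53. Members of the Cyp4a family are similar in sequence, and how far a probe set reads its neighbours was not tested.

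The list of ketogenesis and fasting regulators held 3 genes that rose and 1 that fell, of 13 tested. Vnn1, a pantetheinase that releases pantothenate from pantetheine, was at 977, 1457, 917, 1523 and 1784 in the CA rats and 79.6, 108, 146, 51.6 and 151 in the control rats. All CA rats were above all control rats (3.38, SE 0.36, adjusted p = 2.5e-13). Acat1, the mitochondrial acetoacetyl-CoA thiolase, rose by 1.00 (SE 0.16), and Cidea, a lipid droplet protein, by 1.86 (SE 0.33). Angptl4, an inhibitor of lipoprotein lipase and a known target of PPARalpha, fell by 1.13 (SE 0.25, adjusted p = 0.00064), with 198 to 376 in the CA rats and 399 to 866 in the control rats. Pdk4, the kinase that switches off pyruvate dehydrogenase, and Fgf21, a fasting hormone of the liver, were not called, at -0.16 (SE 0.27) and 1.15 (SE 0.42, adjusted p = 0.083). Ppara itself, the receptor gene, was dim, at 15.8 to 73.8 in the CA rats and 12.3 to 84.5 in the control rats, and was not called.

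Genes of 2 glycerol channels rose. Aqp3, a water and glycerol channel, rose by 3.00 (SE 0.24, adjusted p = 4.1e-20), from 2.21 to 15.3 in the control rats, below the offset, to 169 to 314 in the CA rats. Aqp7, a channel of the same kind, rose by 1.80 (SE 0.18, adjusted p = 3.7e-15), from 29.7 to 65.1 to 137 to 274, and neither gene's groups overlapped.

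Apoa4, an apolipoprotein of triglyceride-rich particles and of HDL, had the largest fall among the genes called. Its signal was 295, 220, 228, 350 and 174 in the CA rats and 4818, 6073, 5127, 3628 and 5406 in the control rats. Every control rat was far above every CA rat (-4.19, SE 0.22, adjusted p = 6.6e-35). Of 14 tested apolipoprotein and lipoprotein enzyme genes, 4 fell, none rose, and none had a positive log2 fold change. Apom, a carrier of sphingosine phosphate on HDL, fell by 1.52 (SE 0.20), and the HDL receptor gene Scarb1 fell by 0.68 (SE 0.17). Lcat, the enzyme that esterifies HDL cholesterol, fell by 0.46 (SE 0.14, adjusted p = 0.027), and the call ended without any of rats 4142, 4145, 4038 and 4039 (adjusted p between 0.054 and 0.085). Apoa1 and Apoc3, which neighbour Apoa4 in mammalian genomes, were at -0.41 (SE 0.21) and -0.39 (SE 0.18) and were not called, although the Apoc3 groups did not overlap.

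Of 14 tested genes of cholesterol synthesis and uptake, 3 rose (Fdps, Lss and Msmo1), with overlapping groups in each case, and 1 was called without CA rat 4142 or without control rat 4036. Fdps, farnesyl diphosphate synthase, was at 4431, 3389, 2587, 2734 and 3651 in the CA rats and 591, 1906, 1331, 3998 and 1255 in the control rats. Its rise of 1.12 (SE 0.32, adjusted p = 0.016) was not called without control rat 4036, which had the lowest value (adjusted p = 0.15), or without CA rat 4142 (adjusted p = 0.064). Msmo1, a sterol methyl oxidase, at 0.93 (SE 0.27), depended on the same rats (adjusted p = 0.18 and 0.051). In bile acid synthesis and transport, 1 of 19 tested genes rose and 1 fell. Slc27a5, the bile acyl-CoA synthetase that also activates fatty acids, fell by 1.21 (SE 0.21, adjusted p = 4.1e-06). Cyp27a1, the sterol 27-hydroxylase, rose by 0.56 (SE 0.15), a call that ended without control rat 4040 (adjusted p = 0.10). Cyp7a1, the rate-limiting enzyme of bile acid synthesis, was not called (0.29, SE 0.32).

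Outside lipid metabolism, Hdc rose most. Hdc encodes histidine decarboxylase, which makes histamine. Its signal was 973, 870, 1343, 638 and 1204 in the CA rats and 49.5, 69.7, 114, 22.7 and 65.7 in the control rats, without overlap (3.57, SE 0.36, adjusted p = 6.5e-15). Cela1 encodes a chymotrypsin-like elastase, and its signal was 1123, 695, 883, 663 and 647 in the CA rats. In the control rats it was 44.8, 96.8, 162, 9.67 and 10.4, again without overlap (3.49, SE 0.33, adjusted p = 1.8e-16). The other 4 tested genes of the pancreatic acinar list were not called, and Prss1, Cela2a and Pnlip, all acinar enzymes, stayed between 22.1 and 58.0 in all 10 rats. Chrna2, a nicotinic acetylcholine receptor subunit, rose by 2.64 (SE 0.31), Cyp17a1, a steroid 17-hydroxylase, by 2.01 (SE 0.29), and Cap2, an actin-binding protein, by 2.0 (SE 0.29). Zfp354a, a zinc finger transcription factor, rose by 2.16 (SE 0.55, adjusted p = 0.0041), and the call ended when control rats 4036 and 4040 were both left out (adjusted p = 0.087). Nipal2 rose by 2.36 (SE 0.14) with little spread, at 277 to 375 in the CA rats and 32.2 to 67.1 in the control rats.

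ATF4 is a transcription factor made when amino acids run short or the endoplasmic reticulum is stressed, and its targets make, import and charge amino acids. Of 28 tested genes of this response, 10 rose, none fell, and the median was 0.28. Left out singly, the 10 rats gave between 8 and 13 genes that rose. Asns, asparagine synthetase, was at 781, 724, 700, 620 and 777 in the CA rats and 607, 47.6, 55.0, 53.9 and 44.8 in the control rats. The groups were apart, but control rat 4036 was close to the CA rats (2.69, SE 0.25, adjusted p = 5.9e-17). Phgdh, the first enzyme of serine synthesis, showed the same rat apart, with 323, 427, 313, 255 and 358 in the CA rats and 439, 11.6, 11.2, 77.4 and 12.4 in the control rats. Its groups overlapped through rat 4036 alone (2.25, SE 0.36, adjusted p = 9.5e-07). Psat1, the next enzyme of that route, was at 229 to 352 in the CA rats, 560 in control rat 4036 and 42.01 to 166 in the other control rats (1.15, SE 0.32, adjusted p = 0.011). The call ended without control rat 4038, 4039 or 4045 (adjusted p = 0.093, 0.085 and 0.078), and the adjusted p was 7.6e-07 without 4036 and 4040.

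Of the regulators in this list, Atf4 itself rose by 0.71 (SE 0.17, adjusted p = 0.0014), and Ddit3, a stress transcription factor, by 0.46 (SE 0.14, adjusted p = 0.029), a call that held in 6 of the 10 fits without a rat. Trib3, a pseudokinase, rose by 1.86 (SE 0.48), from 112 to 374 in the control rats to 383 to 1256 in the CA rats, and its 2 other probe sets rose by 2.23 and 1.66. Nupr1, a small chromatin protein, rose by 1.55 (SE 0.25), and Slc3a2, the heavy chain of amino acid exchangers, by 1.33 (SE 0.20). Sars1, a seryl-tRNA synthetase, rose by 0.68 (SE 0.14), and Vldlr, a lipoprotein receptor, by 1.12 (SE 0.24). None of 20 tested ER chaperone genes passed the test, against 7.28% of all tested genes, and their median was 0.00. Hspa5, the chief chaperone of that compartment, was at -0.18 (SE 0.18).

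**Figure D3:**
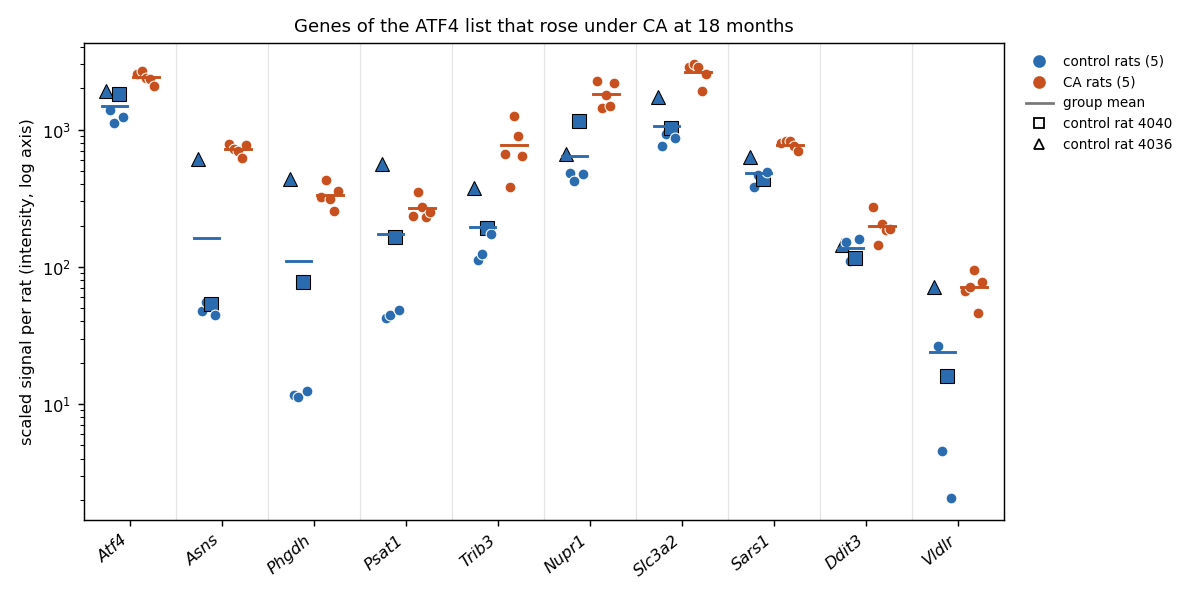
Scaled signal (intensity, log axis) in each of the 5 control and 5 CA rats of the 10 genes of the ATF4 list that rose, with horizontal lines at the arithmetic group means, a square for control rat 4040 and a triangle for control rat 4036. Control rat 4036 lies above the other controls for most genes and reaches the CA range for Phgdh, Psat1 and Vldlr.

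ATF4 binds composite elements close to the start of its target genes. Promoters of the 10 genes that rose were therefore searched for TGATGNAA on either strand, over 250 bases before to 50 after the start in RefSeq's annotation of the GRCr8 build. The letters were present in 2 of the 10 promoters and in 7 of 26 promoters of the tested genes of the list, against 146 of 7311 promoters of all tested genes (2.0%) and 3.98% of the 33469 promoters in the table. The promoters that held the match, Trib3 and Nupr1, are shown with it in capitals, beside that of Asns, the most changed gene of the list, in which the window held no match.
Trib3: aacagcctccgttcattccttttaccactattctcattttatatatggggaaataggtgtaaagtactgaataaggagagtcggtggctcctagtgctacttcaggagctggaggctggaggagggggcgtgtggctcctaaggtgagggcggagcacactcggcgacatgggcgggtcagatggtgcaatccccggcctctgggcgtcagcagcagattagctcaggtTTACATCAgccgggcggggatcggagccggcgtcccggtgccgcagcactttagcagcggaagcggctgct
Nupr1: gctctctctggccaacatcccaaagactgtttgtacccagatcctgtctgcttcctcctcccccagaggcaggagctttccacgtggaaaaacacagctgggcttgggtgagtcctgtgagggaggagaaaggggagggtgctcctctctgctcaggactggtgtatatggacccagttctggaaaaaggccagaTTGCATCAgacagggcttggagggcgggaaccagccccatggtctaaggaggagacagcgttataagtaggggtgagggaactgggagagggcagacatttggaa
Asns: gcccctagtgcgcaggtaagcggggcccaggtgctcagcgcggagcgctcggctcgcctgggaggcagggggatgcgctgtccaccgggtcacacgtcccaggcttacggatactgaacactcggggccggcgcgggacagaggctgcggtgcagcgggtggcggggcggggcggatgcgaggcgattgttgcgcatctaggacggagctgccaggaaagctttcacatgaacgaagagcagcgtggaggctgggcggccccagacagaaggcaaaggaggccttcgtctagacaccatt

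These stretches lie on the minus strand at chr3:161275484-161275783 (Trib3), chr1:190645852-190646151 (Nupr1) and chr4:36769366-36769665 (Asns). The match begins 21 bases before the start in Trib3 and 55 bases before it in Nupr1. Such matches are descriptions of the letters in this window, and elements outside it were not searched.

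Of 35 tested genes of the urea cycle and of amino acid breakdown, 6 fell and Hdc rose. Without control rat 4038 or 4039, 3 fell. Oat, ornithine aminotransferase, was at 324, 508, 462, 316 and 242 in the CA rats and 755, 2881, 4450, 2649 and 2130 in the control rats. The groups did not overlap, and the lowest control value was that of rat 4036 (-2.56, SE 0.33, adjusted p = 4.7e-10). Cbs, the first enzyme of transsulfuration, fell by 0.88 (SE 0.20), and Slc25a15, the mitochondrial ornithine carrier, by 0.64 (SE 0.16). Asl, argininosuccinate lyase, fell by 0.61 (SE 0.20) at an adjusted p of 0.046, and the call held in 1 of the 10 fits without a rat. Cps1, which starts the urea cycle, was at -0.03 (SE 0.17).

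Of 25 tested complement and coagulation genes, 8 fell and none rose, with a median of -0.37, and 8 fell also without control rats 4036 and 4040. C1s and C1r, the proteases of the C1 complex that starts the classical pathway, fell most. The C1s signal was 582, 800, 478, 816 and 702 in the CA rats and 2662, 3894, 2986, 3461 and 2611 in the control rats, with all control rats above all CA rats (-2.18, SE 0.21, adjusted p = 3.4e-15). C1r fell by 1.72 (SE 0.20), from 1394 to 1913 to 358 to 554. The mannose-binding lectin genes Mbl1 and Mbl2, which start the lectin pathway, fell by 0.72 (SE 0.15) and 0.62 (SE 0.13). Of 17 tested acute phase protein genes, 0 passed limma's adjusted p of 0.05, and the median was -0.13. Over all tested genes 3.59% fell, and a list of this size cannot tell 0 from that share. The groups did not overlap in the lower direction for 2 of the 17, against 2.94% of all tested genes.

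Of the 15 genes with the largest falls, 4 encode secreted signals, a grouping made after their values had been seen. Cxcl12, a chemokine that retains leukocytes and progenitor cells, was at 560, 746, 760, 623 and 364 in the CA rats and 1762, 2969, 3504, 1821 and 3296 in the control rats, without overlap (-2.07, SE 0.17, adjusted p = 2.3e-19). Il33, an alarmin of the interleukin-1 family, fell by 1.80 (SE 0.25), from 926 to 1638 to 248 to 414. Cxcl1, a neutrophil chemokine, fell by 2.23 (SE 0.47), from 128 to 772 to 31.1 to 61.1. Ntf3, neurotrophin-3, fell by 1.72 (SE 0.23). Of 31 tested interferon response and antigen presentation genes, 5 fell and none rose. The count of genes that fell was 8 without control rat 4039, 3 without 4045 and 3 without 4036 and 4040. Ifitm3, an interferon-induced membrane protein, fell by 1.55 (SE 0.21), and Irf1, an interferon-regulated transcription factor, by 0.67 (SE 0.17). Cd74, the invariant chain of class II molecules, fell by 1.06 (SE 0.27), with overlapping groups. The call ended without CA rat 4150 or control rat 4045 (adjusted p = 0.052 and 0.057) and without control rats 4036 and 4040 together (0.08).

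Macrophage markers were measured beside these genes. Of 12 tested Kupffer cell and macrophage markers, 1 fell (Lyz2, lysozyme, by 0.68, SE 0.16), none rose, and the median was -0.32. Their summed signal was 7257 to 8319 in the CA rats and 6524 to 16000 in the control rats, highest in rat 4040. In bulk liver, fewer cells of a type and less RNA per cell cannot be told apart. The part of such cells in the falls of complement, chemokine and interferon response genes was not tested. Without control rat 4040, C1s was at -2.14, Cxcl12 at -2.19, Il33 at -1.70 and Ifitm3 at -1.51, and these 4 genes were called. Control rat 4045, whose summed macrophage signal of 12720 was also above the CA range, stayed in that fit.

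Control rat 4040 carried a signal of cytotoxic lymphocytes that the other 9 rats did not. Ccl5, a chemokine of T and natural killer cells, was at 6011 in this rat and 259 to 903 in the others. Prf1 (perforin) was at 924 against 77.1 to 191, Nkg7 at 842 against 68.8 to 125, and Gzmm (granzyme M) at 604 against 9.16 to 69.4. The summed signal of the 10 tested markers was 9977 in rat 4040, 960 to 1754 in the other control rats and 686 to 1456 in the CA rats. None of the 10 markers was called, and their median log2 fold change was -0.69. Without rat 4040, Gzmm went from -1.01 (SE 0.42) to -0.34 and Klrd1, a killer cell receptor, from -0.72 (SE 0.27) to -0.21. The 9 tested T and B lymphocyte markers summed to 1999 in rat 4040 and to 594 to 838 in the others. Outside the 10 rats, 3 untagged control rats were labelled 18mrev, a label that was not explained. They had 178 to 1473 for Gzmm and 30.8 to 591 for Klrd1.

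The same rat differed in genes that growth hormone sets differently in male and female rats. Background knowledge of the rat liver holds Cyp2c11, Cyp2c13, Cyp2a2, Cyp3a2 and Obp3 to be predominant in males and Cyp2c12, A1bg and the prolactin receptor gene Prlr in females. Cyp2c13 was at 82.4 in rat 4040 and at 3951 to 7354 in the other 9 rats, and Cyp3a2 was at 1.47 against 2066 to 7284. A1bg was at 6393 against 4.47 to 45.1, and Prlr at 6186 against 334 to 1228. Wide ranges also occurred in control rats of other groups. The 3 untagged rats labelled 18mrev had 29.96 to 5516 for A1bg, 585.8 to 4130 for Prlr and 135.7 to 4962 for Cyp2c13. Their medians were 62.58, 1098 and 3149. At 9 months, control rats reached 812 for A1bg and 2009 for Prlr, and their lowest Cyp2c13 signal was 1758. The sex of the rats was not given in the labels used here. Cyp2c11, Cyp2c13, A1bg, Prlr and the lymphocyte genes of rat 4040 were picked after their values had been seen.

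**Figure D4:**
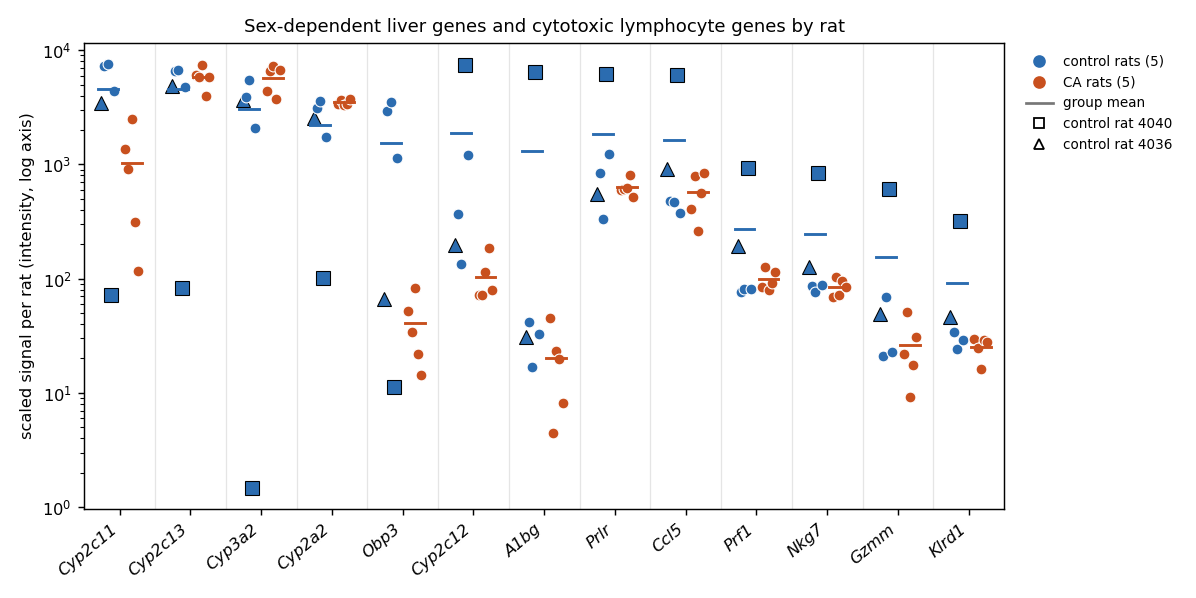
Scaled signal (intensity, log axis) in each of the 5 control and 5 CA rats of liver genes that depend on sex (Cyp2c11 to Prlr) and of cytotoxic lymphocyte genes (Ccl5 to Klrd1), with horizontal lines at the arithmetic group means, a square for control rat 4040 and a triangle for control rat 4036. Control rat 4040 is the lowest control for the first 5 genes and the highest rat for the other 8.

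Calls among the drug-metabolising genes depended on this rat. Of 34 tested genes, 5 rose and 3 fell, and without control rat 4040, 2 rose and 2 fell. The count of genes that rose was 3 without CA rat 4142 or 4143 and 2 without CA rat 4144 or 4150. Cyp3a2 rose by 2.05 (SE 0.63, adjusted p = 0.027) with all rats and was at 0.63 without rat 4040 (adjusted p = 0.64). Its call ended also without CA rat 4143, 4144 or 4150 (adjusted p = 0.055, 0.066 and 0.061). Cyp2a2 rose by 1.27 (SE 0.41, adjusted p = 0.041) and was at 0.39 without it (adjusted p = 0.68), and without any 1 of the CA rats the adjusted p was between 0.063 and 0.077. Cyp2c12 fell by 2.42 (SE 0.65, adjusted p = 0.0081), with 71.9 to 184 in the CA rats and 134 to 7432 in the control rats, and was at -1.54 without it (adjusted p = 0.17). Cyp2c11 ran the other way. Its signal was 1356, 913, 2483, 312 and 116 in the CA rats and 3418, 7294, 7586, 72.3 and 4420 in the control rats. It was not called with all rats (-1.81, SE 0.62, adjusted p = 0.055) and was at -2.97 (SE 0.58, adjusted p = 8.6e-05) without rat 4040, where the groups did not overlap. Low Cyp2c11 also occurred in other control rats. The 3 untagged control rats labelled 18mrev had 146 to 7705, with a median of 192, which lies inside the range of the CA rats. Members of the Cyp2c and Cyp3a families are similar in sequence, and their probe sets may read more than 1 member.

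Some calls in this group held without rat 4040. Cyp2j3, an epoxygenase of arachidonic acid, rose by 0.98 (SE 0.20) with all rats and by 0.63 without it (adjusted p = 0.022), but was not called without 4036 as well (adjusted p = 0.17). The carboxylesterase genes Ces2c and Ces1c moved apart, Ces2c by 0.85 (SE 0.21) and Ces1c by -0.93 (SE 0.21), and both were called without it. Obp3, a lipocalin of the major urinary protein family, was at 51.5, 34.0, 82.0, 21.7 and 14.2 in the CA rats and 66.4, 2936, 3537, 11.3 and 1135 in the control rats. Control rats 4036 and 4040 did not exceed the CA range, and the other 3 lay far above it (-3.10, SE 0.66, adjusted p = 0.00041). Of 23 tested genes that depend on growth hormone or sex, 1 rose (Cyp2a2) and 6 fell, and none rose without rat 4040. Igfbp3, the main carrier of IGF1, fell by 0.85 (SE 0.18), and Igf1 itself by 0.62 (SE 0.17, called in 7 of the 10 fits without a rat). Rgn, regucalcin of the ascorbate route, fell by 1.11 (SE 0.19).

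Of 26 tested NRF2-type and glutathione genes, 1 rose and 2 fell (3.85% and 7.69%, against 3.68% and 3.59% of all tested genes). The count that fell was 1 without any of rats 4142, 4145, 4038, 4040 and 4045. Gpx2, a glutathione peroxidase, rose by 0.72 (SE 0.19), and Nqo1, a quinone reductase, fell by 0.78 (SE 0.21), a call that ended without control rat 4040 (adjusted p = 0.068). Of 14 tested p53 target and repair genes, 3 fell and none rose, also without control rats 4036 and 4040. Phlda3, an inhibitor of AKT, fell by 1.65 (SE 0.20, adjusted p = 8e-11), from 135 to 359 to 44.4 to 71.7. Mdm2, the ubiquitin ligase of p53, fell by 0.91 (SE 0.23), and Ccng1, cyclin G1, by 0.61 (SE 0.15), while Cdkn1a, the best known p53 target, was at -0.49 (SE 0.23) and was not called.

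Of 17 tested genes of glucose handling, 2 rose and 1 fell (11.8% and 5.88%, against 3.68% and 3.59% of all tested genes). The count that rose was 1 without CA rat 4150 or control rat 4039. Pfkfb1, a bifunctional enzyme that sets a regulator of glycolysis, rose by 1.37 (SE 0.31) and Pck2, the mitochondrial PEP carboxykinase, by 1.16 (SE 0.34), while Pklr, the liver pyruvate kinase, fell by 0.68 (SE 0.21), a call that ended without any of rats 4142, 4145, 4150, 4038, 4039 and 4045. None of 28 tested cell cycle genes and none of 13 tested liver tumour markers passed limma's adjusted p of 0.05. Over all tested genes 7.28% did, so lists of this size would hold few calls at that share. The median was -0.11 in both lists. Mki67, a proliferation antigen, was at 4.41 to 21.8 in the CA rats and 2.30 to 69.0 in the control rats. Ccnd1, cyclin D1, was at -0.51 (SE 0.24). Gstp1, the placental glutathione S-transferase that marks preneoplastic foci of rat liver, was at 214 to 336 in the CA rats and 228 to 743 in the control rats (-0.39, SE 0.23). Afp, alpha-fetoprotein, was at 267 to 649 and 446 to 655.

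Subunits of the mitochondrial respiratory chain were mostly higher. Of 36 tested genes, 34 had a positive log2 fold change, 11 rose, none fell, and the median was 0.37. Ndufs1, a core subunit of complex I, was at 707, 968, 862, 862 and 903 in the CA rats and 484, 699, 644, 583 and 456 in the control rats, without overlap (0.58, SE 0.13, adjusted p = 0.00083). Cox4i1 of complex IV rose by 0.49 (SE 0.12), and Uqcrc1 of complex III by 0.48 (SE 0.13). The count of genes that rose was 8 without control rat 4040, 4 without 4036, 1 without both and 5 without CA rat 4150. Slc25a4, the ADP/ATP translocase of heart and muscle, was among the 11 through CA rat 4150, at 3600 against 134 to 209 in the other CA rats and 91.6 to 281 in the control rats (1.15, SE 0.37, adjusted p = 0.043). Without rat 4150 its adjusted p was 0.72, and the call also ended without control rat 4036, 4038, 4039 or 4045 (between 0.066 and 0.1). None of 21 tested ribosomal protein genes and none of 22 proteasome genes were called at 18 months, against 7.28% of all tested genes. Their medians were 0.12 and 0.09. At 12 months, 19 of the ribosomal genes were called higher in the same fit, with a median of 0.49. Of all 8742 tested genes, 1072 were called at 12 months in either direction. None of the 21 ribosomal genes differed between the 2 times by the test of the difference.

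Other cell types left few calls. Of 6 tested bile duct markers, Epcam, an epithelial adhesion protein, rose by 1.12 (SE 0.14, adjusted p = 2.5e-10), from 124 to 290 to 422 to 568, and the other 5 did not pass the test. Of 17 tested stellate cell and fibroblast markers, Reln (reelin) fell by 0.52 (SE 0.15), a call that ended without control rat 4040 (adjusted p = 0.14). None of 8 endothelial, 3 red blood cell and 4 adipocyte markers were called. S100a9, the 1 tested neutrophil marker, fell by 1.03 (SE 0.31, adjusted p = 0.025) and was not called without control rat 4040 (adjusted p = 0.15), 4038 (0.062) or CA rat 4142 (0.13) or 4144 (0.061). Of markers that are uneven across the liver lobule, 2 of 10 periportal genes fell (Asl and Cyp2f4), and of 11 perivenous genes 3 fell (Oat, Axin2 and Rgn) and Cyp27a1 rose.

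The 18-month effect was then set against the earlier ones, measured in other rats with controls of their own. Against 12 months, no probe set passed limma's adjusted p of 0.05 for the difference (0.0% of 12393), while 707 (5.7%) had an unadjusted p under 0.05. Of the 636 genes called at 18 months, 375 (59.0%) were called in the same direction at 12 months, which was 35.0% of the 1072 genes called there, and none were called in the opposite direction. The label 5j, which was not explained, was taken as the earliest time of the CA and control groups. In the same direction, 301 genes were called at both 5j and 18 months (47.3% of the calls at 18 months and 30.7% of 981 at 5j). In all, 176 genes were called at each of the 6 times.

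Against the mean of the 5 earlier effects, 12 probe sets (0.0968%) differed, 2 of them higher and 10 lower. They stood for 9 named genes, and 2 had no gene name. Cela1 and Aqp7 had larger rises at 18 months than in that mean, and Cyp4a8 and Tpd52l1 larger falls. At 12 months the effects were already 2.71 for Cela1, 1.28 for Aqp7, -3.02 for Cyp4a8 and -1.51 for Tpd52l1. None of these genes differed between 12 and 18 months by the test of the difference. Cd36, Acsm2 and Apex1, a DNA repair endonuclease, had been called higher at 2 or more of the earlier times and were not called at 18 months. The loss of the call was not particular to 18 months for Cd36, which was uncalled at 9 and 12 months too. Acsm2 was likewise uncalled at 12 months (0.69, SE 0.30). The remaining genes, Gpd1 and Myorg, were called through probe sets that were not the brightest of the gene. The call held for Cela1, Cyp4a8, Cd36 and Acsm2 in each of 60 fits that left out 1 rat. For Aqp7 it held in 57, ending without CA rat 4143 or 4150 or control rat 4040 (adjusted p = 0.11, 0.1 and 0.059), and for Tpd52l1 and Apex1 in 35 each.

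For Cela1, Cyp4a8, Tpd52l1 and Cd36 the control means moved farther across the times than the CA means, a description that was not tested. The Cela1 signal in control rats was 526 ± 118 at 5j, 366 ± 134 at 1 month, 233 ± 58.7 at 3 months, 134 ± 66.8 at 9 months, 116 ± 26.7 at 12 months and 64.7 ± 64.9 at 18 months (SD, n = 5 at each time). In CA rats it was 757 ± 196 at 5j and 802 ± 203 at 18 months, with means between 659 and 927 at the times between. Its effect grew from 0.49 (SE 0.33) at 5j to 3.49 at 18 months, and exceeded the mean of the earlier effects by 1.90 (SE 0.36, adjusted p = 0.0014).

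Cyp4a8 did the reverse, with control levels of 174 ± 28.2 at 5j, 669 ± 102 at 12 months and 967 ± 560 at 18 months (SD, n = 5 at each time). In CA rats it stayed between means of 39.7 and 68.4 at all 6 times, and its effect at 18 months was lower than the earlier mean by 1.47 (SE 0.23, adjusted p = 4.3e-05). Tpd52l1, of the tumour protein D52 family, had control means of 56.0 at 5j and 261 at 18 months and CA means of 40.9 and 57.5. Its difference from the earlier mean was -0.90 (SE 0.21, adjusted p = 0.043).

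Cd36, the fatty acid translocase, started low in control rats and ended high. Its control means were 99.7 at 5j, 597 at 12 months and 1148 at 18 months, and its CA means were 1364, 740 and 1022. The effect was 3.53 (SE 0.31) at 5j, 0.57 (SE 0.31) at 9 months, 0.31 (SE 0.31) at 12 months and 0.00 (SE 0.31) at 18 months. At 18 months the signal was 736, 1039, 940, 938 and 1455 in the CA rats and 567, 883, 810, 2555 and 927 in the control rats. The highest value was again that of rat 4040, and the difference from the earlier mean, -1.81 (SE 0.34, adjusted p = 0.0014), had an adjusted p of 0.041 without it. Acsm2, a medium-chain acyl-CoA synthetase, had a control mean of 848 at 18 months against 136 to 331 at the earlier times, and CA means of 292 to 550 throughout (difference -1.62, SE 0.33, adjusted p = 0.0063). Whether age, array batch or both moved with these control levels was not tested, as every time had its own rats.

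**Figure D5:**
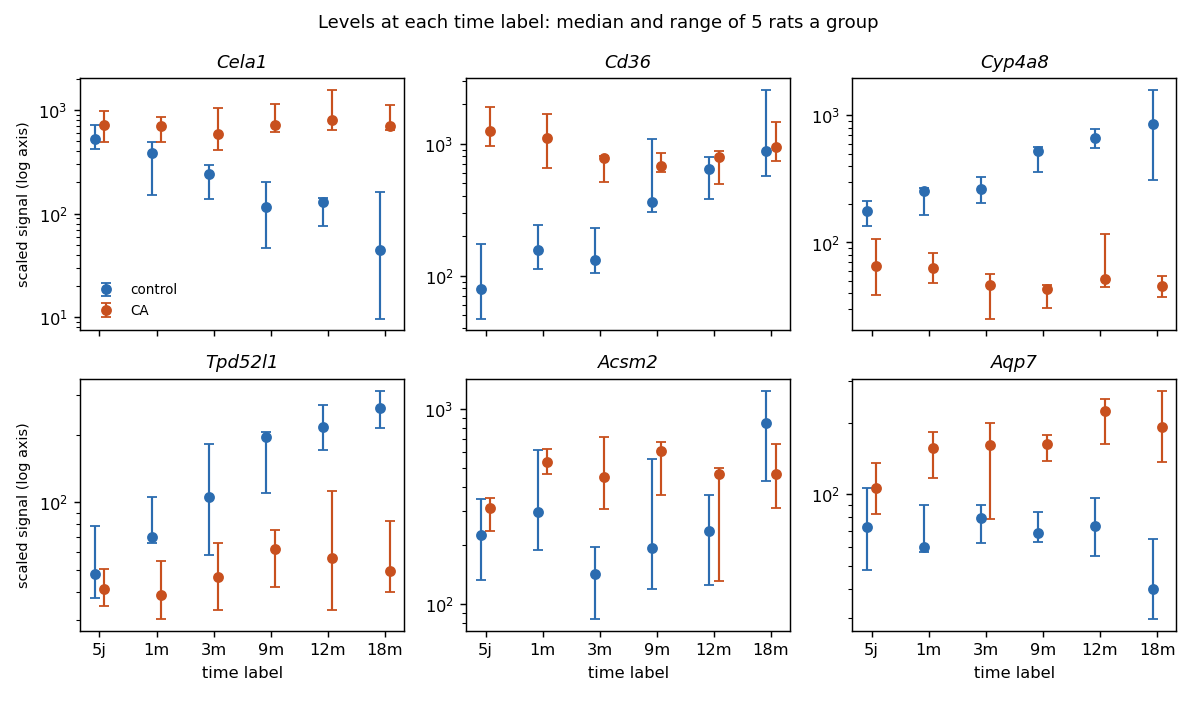
Scaled signal (log axis) of 6 genes in control and CA rats at each time label, as the median (point) and the range (bar) of 5 rats a group. Control levels of Cela1 decline from 526 at 5j to 64.7 at 18m (means) while CA means stay between 659 and 927, and control means of Cd36, Cyp4a8 and Tpd52l1 are higher at 18m than at 5j.

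Other large effects of 18 months, such as those of Scd2, Apoa4, Hdc and Acot1, had been called at earlier times. Scd2 was at 0.59 (SE 0.32) at 5j, where it was not called, and rose by 3.74 at 1 month and 4.69 at 12 months. Apoa4 was between -3.95 and -5.61 at the 5 earlier times, and Hdc between 2.93 and 4.54. Acot1 had its largest effects at 5j and 1 month, 5.62 and 4.97, against 3.06 at 18 months. None of these 4 genes differed from its earlier mean by the test of the difference. Cyp3a2 and Cyp2c12, among the 15 largest rises and the 15 largest falls at 18 months, had been called at no earlier time.

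Of the genes called at 18 months, 86 had been called at no earlier time, 36 of them higher and 50 lower. None of the 86 differed from the mean of the earlier effects, 83 had the same sign as that mean, and 11 were called in every fit without 1 rat. Among those furthest apart, Hspb1, a small heat shock protein, rose by 1.59 (SE 0.40), from 13.1 to 223 to 273 to 445, and was not called without control rat 4036 (adjusted p = 0.064). Pla1a, a phospholipase, fell by 1.07 (SE 0.21; adjusted p = 0.074 without control rats 4036 and 4040), and Sap25 fell by 1.18 (SE 0.31), from 26.2 to 67.2 to 2.30 to 8.91. Rgma, a bone morphogenetic protein co-receptor, was at 5.47 to 10.1 in the CA rats, 7.83 and 14.5 in control rats 4040 and 4036 and 80.1 to 86.3 in the others (-1.07, SE 0.27). Cux2, Tmem64 and Slc22a8, also among these genes, were not called without rat 4040 (adjusted p = 0.25, 0.27 and 0.26).

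A further group of 6 untagged CA rats was labelled 18 without a unit. Set directly against it, with no controls involved, the CA group of 18m differed in 867 probe sets (7.0%), 390 higher and 477 lower. Rxra, the heterodimer partner of PPARalpha, was at 300 to 487 in the CA rats of 18m, 311 to 526 in their controls and 68.9 to 123 in the rats labelled 18 (1.76, SE 0.19, adjusted p = 1.3e-11). It was also at 35.0 to 89.6 in 3 untagged control rats whose label carried rev, a tag the labels did not explain, and was picked after these values had been seen. Apoa4 was at 174 to 350 and 416 to 932 (-1.35, SE 0.21), and Zfp354a at 555 to 1735 and 121 to 336 (2.14, SE 0.52). Cela1 was at 647 to 1123 and 754 to 1349 and was not called (-0.29, SE 0.31). What else separated these groups, such as array batch, cannot be told apart from the label.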

How the data were processed

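Liver RNA of F344 rats was hybridized to Affymetrix arrays. The values deposited by the authors are linear intensities, and the submitters' processing notes named MAS5, with version, scaling and background handling not given in the sources used here. Probe sets were named through the platform annotation and updated symbols. A gene was represented by its brightest probe set.

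Each array was scaled to a median of 99.35, 25 was added and log2 taken, so a shift shared by most genes is removed. Probe sets above the 40th percentile of their array on at least 3 arrays were kept, 12393 in all. The 148 untagged arrays of 30 groups entered 1 limma fit (version 3.58.1, R 4.3.3) with a mean per group, 118 residual degrees of freedom and a variance trend, tested two-sided. The spread behind each p-value was that within groups, pooled over all 148 untagged arrays, and not that of the 10 rats alone. The labels do not say how the rats were housed or processed, so p-values measure only spread between rats. The number of arrays limits the precision. No 2 of the 10 arrays held identical values.

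The members and the gene lists were chosen with earlier results of these data known. Named genes were the 15 highest and 15 lowest called genes, up to 4 genes of each list with the smallest adjusted p and those against its majority, and up to 8 in each direction of the other contrasts. Genes called at 18 months and at no earlier time added 6 in each direction. Genes without a known function were left out. Genes named besides were chosen after their values were seen or show uncalled members of a list.

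Simulated data with known changes were run through the same code for CA against control at 18 months, over 12393 probe sets. In these, 40.3% of changes of 0.5 log2, 83.6% of 1 log2 and 100% of 2 log2 were called. Of the calls, 3.87% were false. The simulated noise was normal and independent, with 1 spread per probe set for all groups, so no rat was made to stand apart. These shares were not tested for calls that rest on 1 outlying rat. Alternatives changed the offset, the scaling, the filter and the groups fitted, added array weights or a 2-fold limit, or left out rats. Promoter sequences and starts came from RefSeq (GRCr8), by symbol.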

Additional observations from a re-analysis of the deposited data

Results flagged for a closer look

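Within the groups of 5 rats, 274 sets of values (137 genes in 2 groups) were searched for a rat far from the others of its group, and 21 were found. Chance alone marks about 1 in 20 such groups, but A1bg, Cyp2c11, Cyp2c13 and the lymphocyte genes were among those searched because of their values in rat 4040, so the number found is not set against chance. Control rat 4040 gave 12 of them. It was far above the other control rats for Scd2 (283.1), A1bg (6393), Gzmm (603.6), Klrd1 (321.3), Nkg7 (842.5) and Tmem64 (2838), and far below them for Cyp2c11 (72.28), Cyp2c13 (82.41), Cyp3a2 (1.473), Cyp2a2 (101.2), Cyp27a1 (2962) and Scarb1 (485.4). Control rat 4036 stood above the other control rats for Asns (606.8), Aqp3 (15.29, still below the offset) and Srebf1 (1714) and below them for Mdm2 (120.6). Control rat 4039 was lowest for Ifitm3 (2198). CA rat 4150 was highest in its group for Slc25a4 (3600), Fabp3 (339.2) and Cpt1a (4293), and CA rat 4144 for Pla1a (139.9).

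The CA effect of 7 genes at 18 months differed from the mean of the earlier effects by the test of the difference. It was higher by 1.90 for Cela1 and by 0.90 for Aqp7. It differed by -1.81 for Cd36, -1.62 for Acsm2, -1.47 for Cyp4a8, -0.90 for Tpd52l1 and -0.71 for Apex1.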

How the results depend on the processing

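The comparison at 18 months called 841 probe sets, 395 higher and 446 lower. A 2-fold limit left 197 (110 higher, 87 lower), and no scaling left 175 (104 and 71). Fitting only the groups of the contrast left 553 (263 and 290). Quantile normalization called 674 higher, and array weights called 677 lower. Without 1 rat each the count was 663 to 901, and without control rats 4036 and 4040, an alternative added after seeing the data, it was 761. The difference from 12 months called 0 probe sets, and 1 after quantile normalization. The difference from the earlier mean called 12, but 2 without scaling, 7 in the groups of the contrast alone, 29 with array weights, 8 without both control rats and 6 to 19 without 1 rat, with 6 without CA rat 4143 or 4150 and 19 without control rat 4039. The CA group of 18m against that labelled 18 called 867, but 69 at the 2-fold limit, 222 without scaling, 1706 in those groups alone, 1834 with array weights and 479 to 813 without 1 rat. The cause of these shifts was not tested, apart from the 2-fold limit, which drops smaller changes.

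Of 104 named genes called at 18 months, none reversed and 49 were called under every alternative in which they were tested. Calls were lost by 4 without a filter, 47 without scaling, 26 in the groups alone, 24 without both control rats, 14 without control rat 4040, 11 with array weights and 0 after quantile normalization. No paired analysis was possible because treated and control rats share no numbers. Signals near or below the offset of 25 have little order.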
